A study of Mus musculus with 2 samples.

Results

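The clustered replication histone genes were followed in single cells of mouse embryos, in the region that gives rise to the cardiac neural crest. These genes encode the histones that package newly copied DNA. Every gene whose symbol starts with Hist1h, Hist2h, Hist3h or Hist4h was taken, which gave 60 of the 18131 genes measured: 5 of H1, 15 of H2A, 16 of H2B, 12 of H3 and 12 of H4. The symbols alone decide membership, but the group itself was chosen by its UMI counts in KO and WT, which had been seen in these libraries before, so the KO over WT values below are a description and no test was made of them. The study asked how loss of Prdm6, a histone methyltransferase gene, affects cardiac neural crest cells, and it had 2 libraries. Embryos of strain C57BL/6 were taken at E9.5. Their genotype was Prdm6+/+; Wnt1-Cre2; ZsGreen1 for the library called WT, and Prdm6f/f; Wnt1-Cre2; ZsGreen1 for that called KO, so the Cre transgene and the ZsGreen1 reporter were present in both. Cre is driven by Wnt1, a gene of the dorsal neural tube from which neural crest cells leave. No sort for the reporter is described, and many other lineages are in the data. Embryos were pooled, and the files do not tie a cell to its embryo. Because each genotype had 1 library, no difference below has a replicate check. All intervals are 95% intervals of counting error alone.

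Replication histone genes are switched on as a cell enters S phase and switched off as it leaves it, which matches the supply of histones to the DNA being copied. H2A, H2B, H3 and H4 form the core of the nucleosome, and H1 is the linker histone that binds the DNA between nucleosomes. Their messages do not end in a poly(A) tail as other messages do. They end just after a short stem-loop that the stem-loop binding protein Slbp holds, and the U7 small nuclear RNP cuts there. The libraries were primed on poly(A), so a UMI (unique molecular identifier, which marks 1 captured molecule) of such a gene comes from a message that carries a tail or from priming at A-rich stretches. The number of UMIs therefore does not give the number of messages, and levels are compared between libraries and not between genes.

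The 60 genes lay in 4 places of the genome (GRCm38, GENCODE vM21). The Hist1 cluster on chromosome 13 (21715763 to 23764406) held 48 of them, the Hist2 cluster on chromosome 3 held 9, Hist3 on chromosome 11 held 2 and Hist4 on chromosome 6 held 1. Of the gene models, 56 had a single exon. The 12 H4 genes encoded 1 protein among them, the 12 H3 genes 3, the 15 H2A genes 7, the 16 H2B genes 11 and the 5 H1 genes 5 different proteins. A stem-loop with 6 paired bases was found after the stop codon in 40 of the 60 annotated messages, 21 to 58 bases beyond it, with a median of 31 bases. The other 20 models showed none in this form, and several of them, Hist1h1b among them, end at the stop codon. There were 6 forms of the stem-loop, and 24 messages shared the most frequent of them.

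The stem-loop is shown for some members that are described below and whose annotated message holds one. Sequences are DNA letters of the GENCODE vM21 transcripts, 5′ to 3′, with the stem-loop in capitals. Hist1h2ae and Hist1h1c carry the frequent form, and both H4 genes carry other ones.
Hist1h2ae: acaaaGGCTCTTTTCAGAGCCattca
Hist1h1c: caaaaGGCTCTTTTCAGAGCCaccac
Hist1h4i: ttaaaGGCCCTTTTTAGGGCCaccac
Hist1h4d: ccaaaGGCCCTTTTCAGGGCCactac

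The bases just before the start of transcription are shown for the members on which the results turn: Hist1h2ae and Hist1h1b, which drew the most UMIs over both libraries (in WT alone Hist1h4i had more than Hist1h1b), Hist1h1a, a further H1 gene with a high ratio of KO over WT, and Hist1h4i, whose levels in both libraries lay within counting error of each other. The sequences are from RefSeq (GRCm38.p6), read on the strand of the gene, and end 1 base before its start. Capitals mark the TATA box, the CCAAT box, the octamer and the AC box of H1 genes, on either strand.
Hist1h2ae, chr13:23571221-23571395, minus strand, between Hist1h2ae and Hist1h2bg: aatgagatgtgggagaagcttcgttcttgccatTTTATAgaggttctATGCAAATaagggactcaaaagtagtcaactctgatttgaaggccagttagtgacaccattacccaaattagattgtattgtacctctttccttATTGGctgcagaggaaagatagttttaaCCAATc
Hist1h1b, chr13:21780626-21780875, minus strand: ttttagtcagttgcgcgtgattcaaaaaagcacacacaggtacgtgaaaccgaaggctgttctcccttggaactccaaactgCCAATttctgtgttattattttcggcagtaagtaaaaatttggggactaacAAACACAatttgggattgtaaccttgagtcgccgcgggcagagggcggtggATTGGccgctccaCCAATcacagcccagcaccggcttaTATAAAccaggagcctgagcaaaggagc
Hist1h1a, chr13:23763418-23763667, plus strand: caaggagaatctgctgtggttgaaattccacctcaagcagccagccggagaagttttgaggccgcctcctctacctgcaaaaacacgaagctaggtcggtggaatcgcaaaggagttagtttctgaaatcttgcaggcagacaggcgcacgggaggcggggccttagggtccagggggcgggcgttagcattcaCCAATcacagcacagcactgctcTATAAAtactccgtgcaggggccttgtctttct
Hist1h4i, chr13:22041363-22041612, minus strand: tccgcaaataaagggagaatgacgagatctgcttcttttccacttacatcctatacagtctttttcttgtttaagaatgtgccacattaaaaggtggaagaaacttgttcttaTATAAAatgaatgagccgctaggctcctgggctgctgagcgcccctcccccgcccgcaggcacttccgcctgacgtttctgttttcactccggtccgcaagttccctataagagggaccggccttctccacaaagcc

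In Hist1h1b the TATA box began 28 bases before the start, the nearest CCAAT box 53 bases and the AC box 117 bases. In Hist1h1a the TATA box began 33 bases and the CCAAT box 56 bases before the start. In Hist1h2ae the TATA letters, 142 bases before the start, were on the other strand, which is that of the neighbour Hist1h2bg, and the octamer began 128 bases before the start. Hist1h4i had the TATA letters alone, 137 bases away. These matches are descriptions of the letters and were not tested for use.

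Over the members as a group, promoters of 300 bases (250 before and 50 after the start) were found for 54 of the 60 genes and compared with all 32851 promoters of the same table. The TATA box, TATAAA, was in 55.6% of the histone promoters and in 13.6% of all promoters. The CCAAT letters, the site of the factor NF-Y, were in 85.2% against 37.4%. They were in every H1, H2A, H2B and H3 promoter matched, and in 3 of the 11 H4 promoters. The octamer ATGCAAAT, the site of Oct-1, was in 18.5% against 1.74%, namely in 5 of 15 H2A and 5 of 14 H2B promoters. The AC box, AAACACA, was in 9.26% of the histone promoters against 7.18% of all promoters, and in 3 of 4 H1 promoters. An E2F site, searched as TTTGGCGC, TTTCCCGC, TTTGCCGC or TTTCGCGC on both strands, was in 16.7% of the histone promoters against 2.26%, and in none of those of H1 or H3. Promoters of H2A and H2B genes that stand head to head overlap, and all motifs were searched on both strands. A match in the shared bases was thus counted for both genes, so these promoters are not independent of each other.

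**Figure D1:**
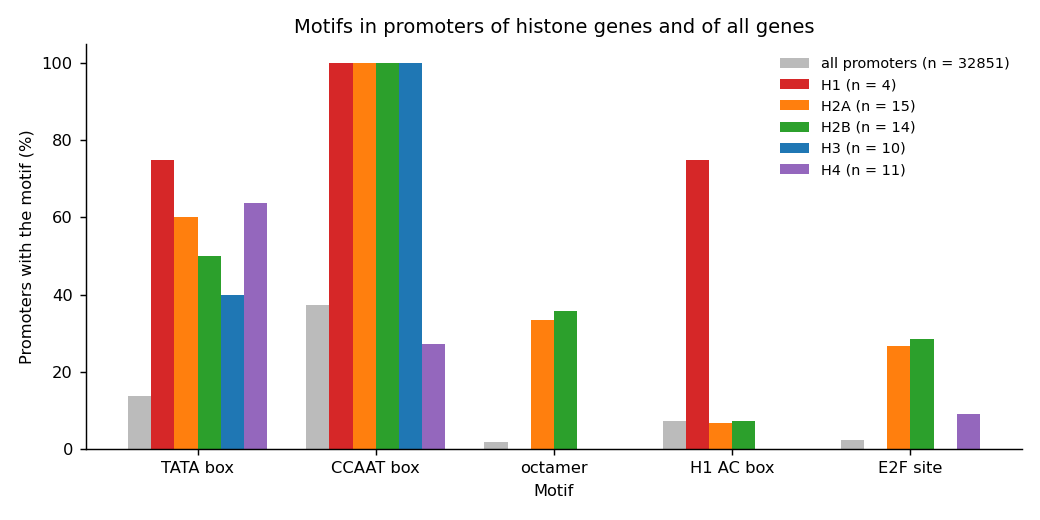
Share of promoters, in percent, that hold each of 5 motifs on either strand, for all 32851 promoters of the RefSeq table (grey) and for the promoters of the 5 histone families (colours, with the number of promoters in the legend). The CCAAT box is in every H1, H2A, H2B and H3 promoter and in 3 of 11 H4 promoters, and the octamer appears among the histone families in H2A and H2B alone.

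Facts of the libraries that touch the results are given once. There were 11958 WT cells with 20781384 UMIs (median 1597 per cell) and 9765 KO cells with 18936857 UMIs (median 1703). The libraries shared 26 cell barcodes. Prdm6 had 104 UMIs in WT and 59 in KO, which does not check the deletion, since reads of the 3′ end can come from a deleted as well as from an intact allele. The samples are labelled as cardiac neural crest cells, whereas cells gated on Sox10, Foxd3 and other markers of migrating neural crest were 3.23% of the WT and 3.43% of the KO library. Xist, which is transcribed from the inactive X chromosome of female cells, had 159 UMIs per 1000000 UMIs (CPM) in WT and 334 CPM in KO, so the mix of male and female cells was not the same in the libraries. Gm42418 and AY036118, which overlap ribosomal RNA genes, were at 1091 and 168 CPM in WT and at 2507 and 389 CPM in KO.

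Histone UMIs were 1.95 times as frequent in the KO library, and most of the surplus came from Hist1h2ae and Hist1h1b. All 60 genes together had 6233 UMIs in WT, which is 299.9 CPM (interval 293 to 307), and 11061 UMIs in KO, which is 584 CPM (573 to 595). On the log2 scale KO stood 0.96 above WT (0.92 to 1.01). They made up 0.0300% of all WT and 0.0584% of all KO UMIs. Hist1h2ae and Hist1h1b held 34.8% of the histone UMIs in WT and 60.1% in KO. The other 58 genes together had 4062 UMIs in WT (195 CPM, 189 to 202) and 4418 in KO (233 CPM, 226 to 240), a log2 ratio of 0.26 (0.19 to 0.32). The median log2 ratio over the 10513 genes with at least 200 UMIs over both libraries was −0.06, and 90% of them lay between −0.44 and 0.30.

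Of the 60 histone genes, 13 reached 200 UMIs over both libraries, 18 had 50 to 199 and 29 had fewer than 50, of which 16 had fewer than 20. The smallest total was 4 UMIs. A gene was counted as differing where its CPM differed at least 1.5-fold between the libraries. Among the 13 genes, 3 were higher in KO by this measure (Hist1h2ae, Hist1h1b and Hist1h1e) and 1 was lower (Hist1h3d). Among all 10513 genes with as many UMIs, 0.371% were higher and 2.02% were lower. When libraries were scaled by a trimmed mean of log ratios (TMM) or by the median of ratios, 5 of the 13 were higher, now with Hist1h4d and Hist1h2bm, and 0 were lower. Of all 10513 genes, 0.542% were then higher and 1.38% lower with TMM, and 0.561% and 1.35% with the median of ratios. Down to 50 UMIs, 8 of 31 histone genes were higher against 1.03% of all genes, and 1 was lower against 3.87%. With at least 4 UMIs, 22 of 60 were higher against 6.07% of all genes, and 4 were lower against 10.8%. Counting error alone spreads ratios at such low totals.

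Hist1h2ae (chromosome 13, 23570517 to 23571220, minus strand), which encodes an H2A protein shared by 9 of the 15 H2A genes, had 1402 UMIs in WT and 4176 in KO. Its level was 67.5 CPM (64.0 to 71.1) in WT and 221 CPM (214 to 227) in KO, and the log2 ratio was 1.71 (1.62 to 1.80). Hist1h1b (chromosome 13, 21779883 to 21780625, minus strand), a gene of the linker histone H1, had 769 UMIs in WT and 2467 in KO. Its level was 37.0 CPM (34.4 to 39.7) in WT and 130.3 CPM (125 to 136) in KO, and the log2 ratio was 1.82 (1.70 to 1.93). Among the 10513 genes, Hist1h1b ranked 2 and Hist1h2ae ranked 3 by ratio. Of the annotated message of Hist1h1b, 100% of the stretches of 91 bases occur in no other annotated gene. For Hist1h2ae this was 68.2% overall and 93.3% over the last 300 bases, so a part of its reads could fit other H2A genes.

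The first of the 10513 genes by ratio was E2f1, which encodes a transcription factor that acts on genes of S phase entry, with 55 UMIs in WT and 266 in KO (log2 ratio 2.41, 1.98 to 2.85). The formal name of the Wnt1-Cre2 strain in the methods of the study contains E2f1, and both libraries carry this transgene. In the cross given in the methods, 1 parent carried it. E2f1, Gm42418 and AY036118 thus were higher in the same library as the histone genes. Their part in the histone result was not tested. In the 264 KO cells with an E2f1 UMI, histone UMIs stood at 592 CPM, and in the 9501 KO cells without one at 584 CPM, a log2 ratio of 0.02 (−0.15 to 0.18). In WT, 55 cells had an E2f1 UMI, and these held 16 histone UMIs in all (156 CPM against 301 CPM in the other cells, log2 ratio −0.95, −1.76 to −0.25).

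Of the remaining H1 genes, Hist1h1e was past the limit for a difference, Hist1h1c was not, and Hist1h1a and Hist1h1d had too few UMIs to be counted. Together the 4 H1 genes other than Hist1h1b had 325 UMIs in WT and 555 in KO, a log2 ratio of 0.91 (0.71 to 1.11). Hist1h1e had 115 UMIs in WT and 213 in KO (5.53 and 11.2 CPM), a log2 ratio of 1.02 (0.69 to 1.36). In cells with 1500 to 2500 UMIs alone its log2 ratio was 0.57, which is under the limit of 0.58. It overlaps a long annotated transcript of Hist1h2be on the same strand, and 0% of the stretches in its last 300 bases are its own, so its UMIs cannot be assigned with certainty. Hist1h1a, which is under the limit of 200 UMIs, had 40 in WT and 147 in KO, a log2 ratio of 2.01 (1.50 to 2.55), and its message is 100% its own. Hist1h1d had 38 and 65 UMIs (log2 ratio 0.91, 0.31 to 1.53). Hist1h1c had 132 UMIs in WT and 130 in KO, and its log2 ratio of 0.11 (−0.25 to 0.47) was the lowest of the H1 genes. The interval of Hist1h1c includes 0, and those of the other 4 H1 genes do not.

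Apart from Hist1h2ae, the H2A genes differed little in sum, with 990 UMIs in WT and 973 in KO (log2 ratio 0.11, −0.02 to 0.24). Hist1h2ap had 506 UMIs in WT and 470 in KO (24.3 and 24.8 CPM), a log2 ratio of 0.03 (−0.16 to 0.21). Only 7.65% of its stretches are its own, so its count is uncertain. Hist3h2a, which lies outside the large cluster, had 164 and 143 UMIs (log2 ratio −0.06, −0.40 to 0.27). Under the limit, Hist2h2ac of the Hist2 cluster had 35 UMIs in WT and 84 in KO (log2 ratio 1.40, 0.81 to 2.01), while Hist1h2ag had 71 and 46 (−0.49, −1.06 to 0.06). The H2A genes with a ratio thus lay between −0.49 and 2.06.

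The H2B genes together had 973 UMIs in WT and 1111 in KO, a log2 ratio of 0.33 (0.20 to 0.45). Hist1h2bm had 262 UMIs in WT and 344 in KO (12.6 and 18.2 CPM), a log2 ratio of 0.53 (0.29 to 0.76). Hist1h2bc had 217 and 256 UMIs (10.4 and 13.5 CPM), a log2 ratio of 0.37 (0.11 to 0.64). Hist1h2be and Hist3h2ba had ratios of −0.10 (−0.50 to 0.29) and 0.02 (−0.39 to 0.43), with intervals on both sides of 0. These 4 H2B genes took other values in the 1667 WT and 598 KO cells with a Y-linked UMI and no Xist UMI, where the log2 ratio was 0.06 for Hist1h2bm, 0.73 for Hist1h2bc, 0.45 for Hist1h2be and −0.55 for Hist3h2ba. In the same cells, the ratio was −0.50 for Hist1h2ap, 0.32 for Hist3h2a and −0.16 for Hist1h3d. No counting interval was computed for these fewer cells, so the shifts cannot be told from counting error.

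The H4 genes together stood at 65.7 CPM in WT and 73.8 CPM in KO, a log2 ratio of 0.17 (0.06 to 0.28), although all of them encode the same protein. Hist1h4i had 813 UMIs in WT and 732 in KO (39.1 and 38.7 CPM), a log2 ratio of −0.02 (−0.16 to 0.13). Hist1h4d had 365 and 483 UMIs (17.6 and 25.5 CPM), a log2 ratio of 0.54 (0.34 to 0.74). In cells with 1500 to 2500 UMIs alone Hist1h4d was at 0.68, past the limit, and in cells with an Xist UMI at 1.12. The intervals of both H4 genes do not overlap. The H3 genes had 409 UMIs in WT and 381 in KO, a log2 ratio of 0.03 (−0.17 to 0.24). Hist1h3d, the H3 gene with the most UMIs, had 168 in WT and 98 in KO (8.08 and 5.18 CPM), a log2 ratio of −0.64 (−1.02 to −0.28), just beyond the limit of −0.58 on the lower side. On the upper side the nearest genes to the limit of 0.58 were Hist1h1e inside it and Hist1h4d, at 0.54, outside it. Over all 60 genes, 55 had more than 3 UMIs in at least 1 library and so were given a ratio. The interval lay above 0 in 15, below 0 in 1 and on both sides of 0 in 39. Over all 16743 genes given a ratio, the interval lay above 0 in 11.4% and below 0 in 20.7%. Of the 13 histone genes with at least 200 UMIs it lay above 0 in 6 and below 0 in 1, against 16.9% and 29.1% of the 10513 genes.

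**Figure D2:**
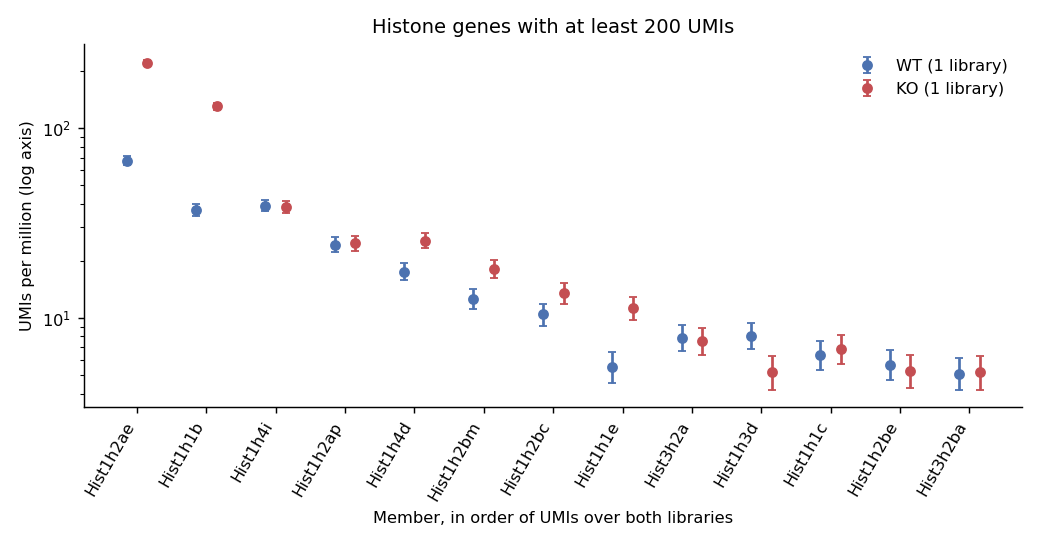
Level of the 13 histone genes with at least 200 UMIs, in UMIs per 1000000 UMIs on a log axis, in the WT library (blue) and the KO library (red), with bars for the 95% Poisson interval of counting. Hist1h2ae and Hist1h1b are at 221 and 130.3 CPM in KO against 67.5 and 37.0 CPM in WT, and Hist1h4i, Hist1h2ap, Hist1h2bc, Hist3h2a, Hist1h1c, Hist1h2be and Hist3h2ba have overlapping intervals.

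**Figure D3:**
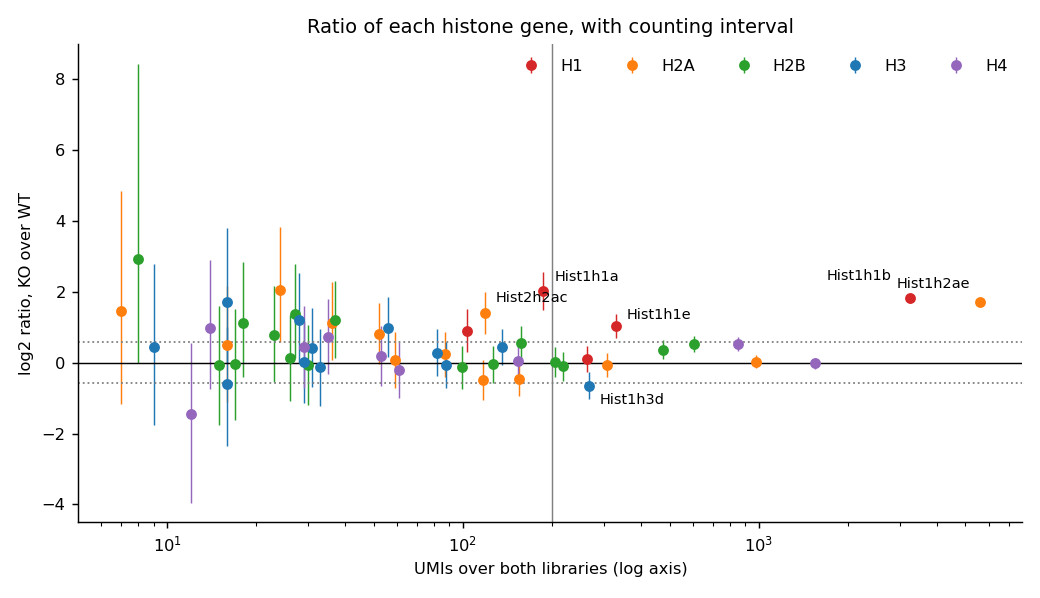
Log2 ratio of KO over WT against the UMIs over both libraries (log axis) for the 55 histone genes with a ratio, coloured by family, with bars for the 95% counting interval. Dotted lines mark a 1.5-fold difference and the vertical line 200 UMIs. Hist1h2ae and Hist1h1b combine large counts with ratios of 1.71 and 1.82, and to the left of the line the bars widen.

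Many H2A and H2B genes stand head to head and share the DNA between their starts. There were 9 such pairs with at most 500 bases between both genes, 175 to 295 bases apart. Hist1h2ae and Hist1h2bg are 175 bases apart, the smallest distance of the 9 pairs, and the sequence between them is printed above. Hist1h2bg had 9 UMIs in WT and 14 in KO, and its log2 ratio of 0.77 had an interval from −0.54 to 2.16, which includes both 0 and the ratio of Hist1h2ae. In 3 pairs both genes had at least 50 UMIs. In the pair of Hist2h2ac and Hist2h2be the log2 ratios were 1.40 (0.81 to 2.01) and −0.13 (−0.73 to 0.47). In the pair of Hist1h2ag and Hist1h2bj they were −0.49 (−1.06 to 0.06) and 0.56 (0.09 to 1.04). In that of Hist1h2ac and Hist1h2bc they were −0.45 (−0.94 to 0.03) and 0.37 (0.11 to 0.64). Within each of the 3 pairs the signs differed and the intervals did not overlap, narrowly so in the pairs of Hist1h2ag and of Hist1h2ac. Of the stretches of Hist1h2ag and Hist1h2bj, 23.3% and 56.0% are their own, so the counts of this pair are uncertain. In the genes of the other pairs it was 74.0% to 100%.

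Poly(A) priming can start inside a message at an A-rich stretch. Up to the end of the stem-loop, or of the annotated message where none was found, the largest number of A in any 20 bases was 14 in Hist1h1b and 13 in Hist1h2ae. Of the other 11 genes with at least 200 UMIs it was higher in Hist1h2ap alone (16), whose count is uncertain, and it was 8 to 12 in the rest. Over the whole annotated message, Hist1h2be (log2 ratio −0.10) also reached 14, with a run of 11 A. Hist1h1a, which has a log2 ratio of 2.01 and is under the limit of 200 UMIs, had 11. The frequent stem-loop form was found in Hist1h2ae (log2 ratio 1.71) and in Hist1h3d (−0.64). Over 13 genes these are descriptions, and how the messages were captured was not tested.

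Cell types were gated by marker genes: a cell entered the gate of the list of which it had at least 3 markers with a UMI and more than of any other list. For cardiac muscle 6 markers were asked for, a limit set after the data were seen, because sarcomere UMIs were found in cells of all kinds. Gates for 13 cell types had at least 50 cells in each library, and 64.2% of the WT and 67.7% of the KO cells entered no gate. Among the 10 leading genes of each gate, 3 to 8 were markers of its own list. The gate of the surface ectoderm list was also led by Rbp4 and Ttr in WT, which are not markers of it. The gates include lineages outside the neural crest, such as endothelial cells and primitive erythroid cells, in which Wnt1 is not known to be active. A lower level of a gene in a gate can mean fewer cells with the message or less of it per cell.

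The histone sum was higher in KO in all 13 gates, and so were Hist1h2ae and Hist1h1b. In migrating neural crest the sum stood at 265 CPM in WT and 561 CPM in KO, a log2 ratio of 1.08 (0.85 to 1.31). In arch mesenchyme, which the neural crest gives rise to, it stood at 311 and 593 CPM (0.93, 0.39 to 1.50). Outside the neural crest, endothelial cells had 235 CPM in WT and 444 CPM in KO (0.92, 0.70 to 1.14), and primitive erythroid cells had 280 and 609 CPM (1.12, 0.89 to 1.35). The smallest ratio was that of sclerotome (0.65, 0.40 to 0.91) and the largest that of dermomyotome (1.31, 0.81 to 1.83), and these 2 intervals overlap. The median over the gates was 0.92. No test of a difference between gates was made, and the values of the neural crest gates lay within the range of the others.

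Hist1h2ae was lowest in neurons (27.1 CPM, 6 UMIs) and highest in neural tube progenitors (69.8 CPM, 74 UMIs) in WT. In KO it was lowest in arch mesenchyme (132 CPM, 22 UMIs, 82.6 to 200 CPM) and highest in neural tube progenitors (265 CPM). By point values the lowest KO level was thus above the highest WT level. The low ends of both ranges rest on few UMIs, so the order of the gates is uncertain. The log2 ratios ran from 1.31 (0.04 to 2.78) in arch mesenchyme, with 7 WT UMIs, to 2.35 in neurons, with 6. The intervals lay above 0 in all 13 gates. Hist1h1b ranged from 15.3 CPM in cardiac muscle to 69.4 CPM in otic and placodal cells in WT (15 UMIs, 38.8 to 114 CPM, which includes the 55.6 CPM of neural tube progenitors), and from 64.8 CPM in cardiac muscle to 222 CPM in arch mesenchyme in KO. Its log2 ratios ran from 1.38 to 2.90, again with intervals above 0 in all 13 gates. In cardiac muscle, whose cells had the lowest level of the S phase gene list in both libraries, Hist1h1b had 30 UMIs in WT and 95 in KO.

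For the other 58 genes the gates were mixed. The sum was higher in KO in 11 of 13 gates, with an interval above 0 in 5. In neural tube progenitors it was 235 CPM in WT and 232 CPM in KO (log2 ratio −0.01, −0.27 to 0.24), and in surface ectoderm 233 and 222 CPM (−0.08, −0.39 to 0.24). In primitive erythroid cells it was 176 and 288 CPM (0.71, 0.39 to 1.02), and in dermomyotome 153 and 287 CPM (0.91, 0.25 to 1.59). Hist1h4i was higher in KO in 6 of the 13 gates and Hist1h2ap in 5. In each gate, E2f1 had at most 3 WT and 12 KO UMIs. Its ratio could be given in 9 gates and was above 0 in all 9. The sum of Gm42418 and AY036118 was higher in KO in all 13 gates, by log2 ratios of 0.70 to 1.36, and its part in the histone values was not tested.

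**Figure D4:**
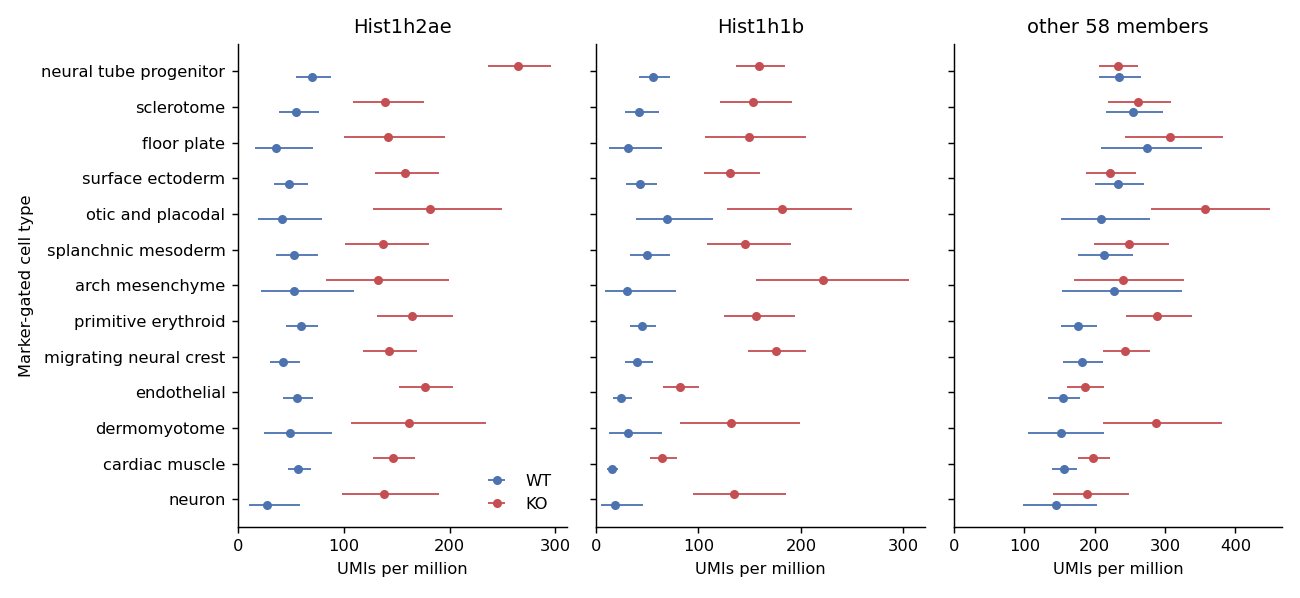
Level of Hist1h2ae, of Hist1h1b and of the other 58 histone genes together, in UMIs per 1000000 UMIs, in 13 marker-gated cell types of the WT (blue) and KO (red) library, ordered by the WT level of all 60 genes. Bars are 95% Poisson intervals of counting. For Hist1h2ae every KO point lies above every WT point, while the intervals of the other 58 genes overlap in most gates.

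Newborn neurons have left the cell cycle and served as the cell type in which replication histones should be low. In WT the histone sum was 189 CPM in neurons and 360 CPM in neural tube progenitors, a log2 ratio of neurons over progenitors of −0.93 (−1.42 to −0.47). In KO it was 462 and 656 CPM, a ratio of −0.51 (−0.79 to −0.23). For Hist1h2ae the ratio was −1.37 (−2.86 to −0.18) in WT and −0.94 (−1.46 to −0.45) in KO. For Hist1h1b it was −1.63 (−3.55 to −0.19) in WT and −0.24 (−0.79 to 0.27) in KO, with 4 neuronal UMIs in WT and 37 in KO. Free RNA also gives UMIs in droplets, and how much of the neuronal level is background was not tested. The intervals of WT and KO overlap for each of these measures, so the drop from progenitors to neurons was not shown to differ between the genotypes.

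Per cell, histone UMIs were rare in both libraries. To set depth equal, 1000 UMIs were drawn from each cell, and 1361 WT and 125 KO cells with fewer were dropped. A UMI of any of the 60 genes was found in 25.7% of 10597 WT cells (24.9 to 26.5) and in 43.1% of 9640 KO cells (42.1 to 44.1). Without thinning the shares were 38.7% and 62.6%. In neurons the thinned shares were 18.7% (12.2 to 26.7) of 123 WT and 34.7% (26.4 to 43.7) of 124 KO cells, at median depths before thinning of 1601 and 2100 UMIs. In cardiac muscle they were 17.6% (15.1 to 20.3) of 842 WT and 34.1% (30.1 to 38.2) of 543 KO cells. The neuron gate was not free of cell cycle genes, with an S list level of 3906 CPM in WT and 4065 CPM in KO against 3847 and 3715 CPM in cardiac muscle, so its share is no clean measure of background. Neural tube progenitors, at 31.4% (27.5 to 35.5) in WT and 46.6% (42.4 to 50.8) in KO, stood above cardiac muscle in both libraries, whereas their interval overlapped that of neurons in KO.

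Hist1h2ae was found in 6.68% of the thinned WT cells and in 20.8% of the KO cells, against 3.25% (0.89 to 8.12) and 15.3% (9.48 to 22.9) of neurons. Hist1h1b was found in 3.45% of WT and 11.3% of KO cells. In neurons it was found in 0.813% (0.02 to 4.45, 1 of 123 cells) in WT and 11.3% (6.31 to 18.2) in KO. Each of these neuron intervals includes the share of all cells of its library. A share of 0.415% in WT and 2.99% in KO had at least 3 histone UMIs, and the highest thinned KO cell had 6 UMIs of Hist1h2ae. The variance of histone UMIs over thinned cells divided by the mean was 1.02 in WT and 1.10 in KO, where independent sampling from identical cells gives 1. For Hist1h2ae it was 1.02 and 1.10, and for Hist1h1b 1.02 and 1.09.

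Cells with UMIs of both Hist1h2ae and Hist1h1b were counted. In WT, 708 thinned cells had a UMI of Hist1h2ae, 366 had Hist1h1b and 27 had both, where 24.5 would have both if the genes were independent. In KO, 2002 cells had Hist1h2ae, 1090 had Hist1h1b and 237 had both, against 226 if independent. Hist1h1b was found in 11.8% of the KO cells with Hist1h2ae and in 11.2% of those without. The other 58 genes were found in 19.7% of KO cells with Hist1h2ae and in 19.3% of those without, and in WT in 18.1% and 17.5%. Beside Hist1h1b the direction differed between the libraries. They were found in 15.8% of WT cells with Hist1h1b and 17.6% of those without, and in 20.8% and 19.2% in KO.

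To see how the histone genes vary along a list of S phase genes, thinned cells were ranked in each library by their UMIs of this list. Nasp, Slbp and other histone supply genes had been left out of the list, and the cells were divided into 5 bins of equal size. The bins are not cell types: the top bin began at 7 UMIs of the list in both libraries, and 1138 WT and 1069 KO cells had exactly this number. The bins were not matched for cell type, and cardiac muscle had the lowest level of both the S list and Hist1h1b in both libraries. How far cell type enters the differences between bins was not tested. From the bottom to the top bin, Slbp went from 261 to 354 CPM in WT and from 276 to 332 CPM in KO. Nasp, which encodes a chaperone of histones H3 and H4, went from 525 to 663 CPM and from 671 to 843 CPM. Hist1h1b went from 31.5 to 41.8 CPM in WT, a log2 ratio of top over bottom of 0.40 (0.06 to 0.75), and from 109 to 145 CPM in KO, a ratio of 0.41 (0.22 to 0.59). Hist1h2ae went from 60.8 to 67.0 CPM in WT (0.14, −0.12 to 0.40) and from 192 to 237 CPM in KO (0.31, 0.16 to 0.45). The other 58 genes showed ratios of 0.04 (−0.11 to 0.20) in WT and 0.02 (−0.12 to 0.16) in KO. In WT they were not flat between these bins: the other 58 genes stood at 179 CPM (167 to 192) in the bottom bin, 201, 210.1 and 216 CPM (202 to 232 for the last) in the next 3 and 185 CPM in the top bin. For Slbp, with which Hist1h1b overlapped in its intervals, the ratios were 0.44 (0.32 to 0.56) and 0.26 (0.15 to 0.38).

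The difference between the libraries was present in every bin. The log2 ratio of KO over WT for Hist1h2ae lay between 1.66 and 1.83 over the 5 bins, and for Hist1h1b between 1.69 and 1.91. The S list itself was slightly higher in KO, at 5066 CPM in WT and 5131 CPM in KO (log2 ratio 0.02, 0.01 to 0.03). The list of G2 and mitosis genes stood at 10824 and 11585 CPM (0.10, 0.09 to 0.11). When cells were ranked by the G2/M list, Hist1h2ae was higher in the top than in the bottom bin, with log2 ratios of 0.42 (0.16 to 0.68) in WT and 0.36 (0.21 to 0.50) in KO. For Hist1h1b the ratios were 0.18 (−0.17 to 0.52) and −0.03 (−0.22 to 0.15), and both intervals include 0. Its interval overlapped that of Hist1h2ae in WT but not in KO. The other 58 genes together had ratios of 0.17 (0.02 to 0.32) in WT and 0.08 (−0.05 to 0.22) in KO, and the sum of all 60 had ratios of 0.23 (0.11 to 0.35) and 0.16 (0.07 to 0.25).

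**Figure D5:**
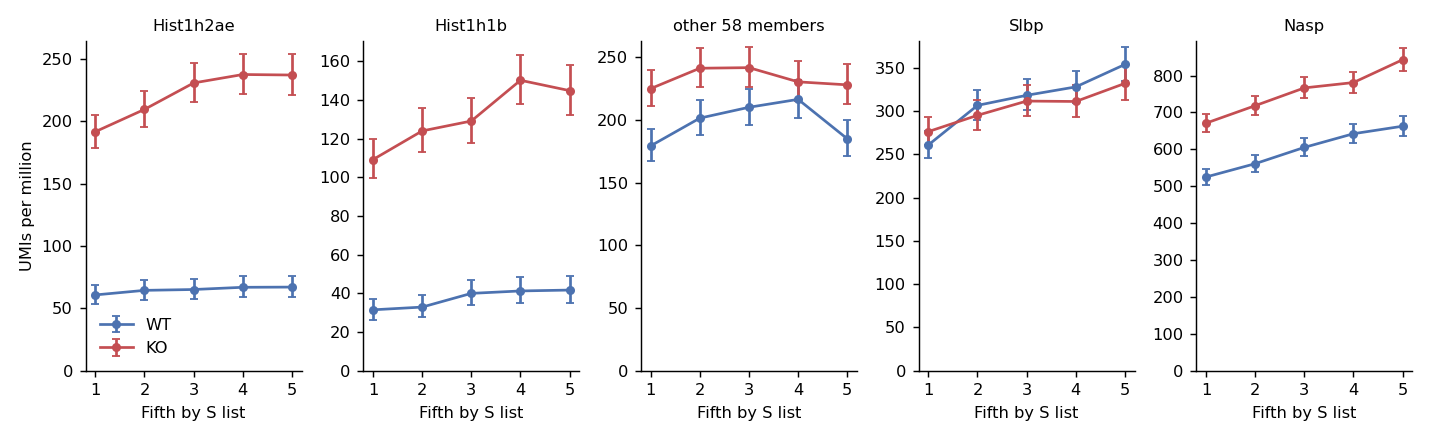
Level in UMIs per 1000000 UMIs of Hist1h2ae, Hist1h1b, the other 58 histone genes together, Slbp and Nasp in the 5 bins of cells ranked by thinned UMIs of the S phase list, in WT (blue) and KO (red), with 95% Poisson intervals of counting. Each vertical axis starts at 0 and has its own scale. Slbp and Nasp are higher in the top than in the bottom bin in both libraries, Hist1h1b goes from 31.5 to 41.8 CPM in WT and from 109 to 145 CPM in KO, and the KO points of Hist1h2ae and Hist1h1b lie above all WT points.

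Genes that make or process histone messages, carry histones or encode replacement histones were looked at by lists. Of 21 genes of histone message synthesis and processing that were measured, 20 had at least 200 UMIs, and 0 of them were 1.5-fold higher or lower, which is near the shares over all genes of 0.371% higher and 2.02% lower. Their median log2 ratio was 0.03. Slbp had 6449 UMIs in WT and 5756 in KO (log2 ratio −0.03, −0.08 to 0.02). Npat, the coactivator that drives replication histone transcription, had 615 and 592 UMIs (0.08, −0.09 to 0.24). Casp8ap2 (FLASH), which is needed to process the messages, had the highest ratio of the list at 0.30 (0.22 to 0.37), and Hinfp, a factor that binds H4 promoters, the lowest at −0.33 (−0.56 to −0.10). The U7 proteins Lsm10 and Lsm11 were at −0.15 (−0.31 to 0.01) and 0.02 (−0.18 to 0.22).

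Among 20 histone chaperones, 0 differed 1.5-fold in either direction, again near the shares over all genes (0.371% and 2.02%), and the median log2 ratio was 0.01. Nasp had 12731 UMIs in WT and 14291 in KO (0.30, 0.27 to 0.34). Asf1a and Asf1b, which hand H3 and H4 to the replication machinery, were at −0.12 (−0.19 to −0.05) and −0.13 (−0.26 to 0.01). The subunits of chromatin assembly factor 1, Chaf1a and Chaf1b, were at 0.03 (−0.06 to 0.12) and −0.10 (−0.22 to 0.02), and Supt16, a subunit of FACT, was lowest at −0.22 (−0.25 to −0.20).

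Replacement histones are mostly made outside S phase as well, from messages with poly(A) tails, although H2afx also makes a stem-loop message and Cenpa is made mainly in G2. The 11 genes measured had 255295 UMIs in WT and 223690 in KO, and 0 differed 1.5-fold, where the shares over all genes were 0.371% higher and 2.02% lower. Their median log2 ratio was −0.07, with a range from −0.25 for H2afx to 0.23 for H2afj. H2afz had 129588 UMIs in WT and 112635 in KO (−0.07, −0.08 to −0.06). H3f3a and H3f3b, both of which encode H3.3, were at −0.11 (−0.14 to −0.09) and 0.11 (0.09 to 0.14), and the linker genes H1f0 and H1fx at −0.15 (−0.20 to −0.10) and 0.10 (0.05 to 0.15).

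The cells were also divided into 5 bins by their thinned histone UMIs, and the top bin (2119 WT and 1928 KO cells) was compared with the other cells of its library. In both libraries it began at 1 histone UMI, and of the cells with 1 UMI, 604 of 2316 in WT and 2226 of 2988 in KO fell at random among the other cells. The S list was at 5025 CPM in these cells and 5003 CPM in the others in WT, and at 5302 and 5088 CPM in KO (log2 ratios 0.01, −0.02 to 0.03, and 0.06, 0.04 to 0.08). The 10 genes with the highest ratios in both libraries, apart from histone genes, had log2 ratios of 0.45 to 0.77 and included the adult globin gene Hbb-bs (0.58 in WT and 0.77 in KO), the Wnt inhibitor gene Dkk1 (0.56 and 0.51) and AI646519 (0.76 and 0.74). Lmod3 and Klhl30, which are active in striated muscle, were the lowest by the less extreme value of both libraries (−1.22 and −1.12, and −1.16 and −1.01), and Adgrg6 (−0.91 and −0.98), Dcn (−1.17 and −0.89) and 1700052K11Rik (−0.88 and −0.86) followed. The intervals lay on one side of 0 in both libraries for 3 of the 10 highest and 4 of the 5 lowest genes, and in KO that of Dkk1 ran from −0.10 to 1.10 and that of Dcn from −2.28 to 0.25. These genes were chosen for their ratios out of 10500 and most had few UMIs, so the values are descriptions.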

How the data were processed

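Cells of the cardiac neural crest region at E9.5 were profiled with 3′ droplet libraries, 1 of WT and 1 of KO embryos. The authors counted UMIs with Cell Ranger 1.3.1 (build mm10 and Scanpy per the submitters' processing notes, whereas the methods name a human genome with the reporter), filtered cells and genes, removed mitochondrial and ribosomal UMIs, divided by the cell's total and took the square root. The methods give the same round number of cells for both libraries, and the files hold 11958 WT and 9765 KO cells. The methods name a doublet caller, without saying whether it ran before deposit, and none was run here.

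The deposited values are of no standard unit. Their squares add up to 1641 for every cell. Division of these squares by the smallest nonzero square of the cell gave whole UMI counts for 100% of nonzero values within 0.01. The deposited values thus gave counts, but no count model was fitted, because the files do not hold raw counts and each genotype had 1 library. CPM carry exact Poisson intervals, log2 ratios exact conditional intervals and shares exact (Clopper-Pearson) intervals. A ratio needed more than 3 UMIs in WT or in KO. Genes with at least 200 UMIs and a 1.5-fold difference were counted as differing. Thinning used seed 1. Every histone gene with at least 200 UMIs could be named, and genes below it are named where they bear on a family or pair, chosen after their values were seen. Members and gene lists were chosen with earlier results of these data known. For cardiac muscle the gate's marker number was set after marker counts were seen. The interval and the thinning were tested on simulated data. Scaling by TMM and median of ratios, a mean over cells, a depth window, an equal make-up of gates, other UMI and fold limits, other marker numbers and 3 bins in place of 5 were tried. Promoters were matched to RefSeq (GRCm38.p6) and messages to GENCODE vM21. Computations used Python 3.11.15, numpy 2.4.6, scipy 1.17.1, pandas 2.3.3 and matplotlib 3.10.9.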

Additional observations from a re-analysis of the deposited data

How the results depend on the processing

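There was 1 library per genotype, so no replicate could be left out, and the intervals do not include the spread between embryos or libraries. No paired analysis was possible because the libraries share only the number 1 in their groups and no result comes from a replicated test. The log2 ratio of the histone sum (0.96) was 1.02 with TMM scaling, 1.03 with median-of-ratios scaling and 0.91 in cells with 1500 to 2500 UMIs alone. In alternatives chosen after seeing the data it was 0.87 in the 1667 WT and 598 KO cells with a Y-linked UMI and no Xist UMI, and 0.99 in the 2281 WT and 3677 KO cells with an Xist UMI. It stayed above 0 in all of these. The count of 3 genes higher in KO became 5 with TMM, with median-of-ratios scaling and in cells with a Y-linked UMI, 8 with at least 50 UMIs and 22 with at least 4 UMIs. The count of 1 lower became 0 with both scalings, with a mean over cells, in cells with a Y-linked UMI and at a 2-fold limit, and 4 with at least 4 UMIs. Of all genes, 3.34% were higher and 9.5% lower in cells with a Y-linked UMI, 0.323% and 2.43% with a mean over cells, and 0.105% and 0.333% past 2-fold. In cells with 1500 to 2500 UMIs, Hist1h1e fell to 0.57, under the limit, and Hist1h4d was at 0.68, past it. The sum of the other 58 genes (0.26) was 0.19 in these cells, 0.11 in cells with a Y-linked UMI, 0.37 in cells with an Xist UMI and 0.32 with median-of-ratios scaling. With the values of this sum, 16 values of named genes or sums moved, among them Hist1h2bm to 0.06 in cells with a Y-linked UMI and Hist1h4d to 1.12 in cells with an Xist UMI. These moves were judged against the counting interval in all cells, which is narrower than that of a subset. The share of cells with a histone UMI fell to 21.2% in WT and 37.0% in KO when cells were thinned to 800 UMIs, by construction. The remaining 33 alternative values of these main results, among them those with other numbers of markers per gate and with 3 bins in place of 5, moved less than the limits set for them. The causes were not tested.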
